A study of Mus musculus with 2 samples.

Results

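The 10 genes described here form a short list of adipogenic differentiation genes, Pparg, Cebpa, Cebpb, Cebpd, Fabp4, Adipoq, Plin1, Lpl, Cd36 and Cfd. All 10 were listed in both single-cell libraries of the series, among 27995 genes shared by them. Levels are given in stromal cells, defined as cells with at least 1 UMI of Pdgfra, the platelet-derived growth factor receptor carried by fibroblast-like adipose progenitors. A UMI, or unique molecular identifier, marks 1 captured RNA molecule, and a level is given in CPM, that is, per 1000000 UMIs of the cells summed. The cells came from wild-type C57BL/6N mice, aged 8 to 12 weeks per the labels. Stromal vascular fractions of pooled fat pads, inguinal white (iWAT) or interscapular brown (iBAT), were grown as primary cultures to near confluency. Per the labels each depot's cultures were untreated or exposed for 48 h to 5.5 nM of FGF1, FGF2 or FGF8, and the 4 treatments were pooled in 1 BD Rhapsody whole-transcriptome library. Cells could not be assigned to a treatment in the files used here, so each library counted as 1 sample, the depots were compared without replicates, and no p-value is given.

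Adipogenesis runs through a cascade of transcription factors. C/EBPbeta and C/EBPdelta act early in precursor cells, and C/EBPalpha and PPARgamma then maintain each other and switch on the genes of the fat cell. Those genes serve lipid uptake and storage, and the secretion of adipokines. Cebpb, Cebpd, Cebpa and Pparg encode these 4 factors. Lpl encodes the lipase that frees fatty acids from circulating lipoproteins, Cd36 a fatty acid transporter at the cell surface, Fabp4 an intracellular fatty acid carrier, and Plin1 the perilipin that coats the lipid droplet of fat cells. Adipoq (adiponectin) and Cfd (complement factor D, or adipsin) are secreted. Lpl, Cd36 and Cebpa are also expressed by macrophages, and Fabp4, Cd36 and Pparg by endothelial cells of small vessels.

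The promoter sequences of 1 transcription factor and of 2 genes of the fat cell are shown because the 4 factors and the other 6 members differed in CG content, which the rule did not use. They are the window with most CG dinucleotides and 2 of the 3 with none. Each run is the 250 bases just upstream of the annotated transcript start in GRCm39 with GENCODE M39, on the strand of the gene, with CG dinucleotides in capitals. The Cebpb window lies at chr2:167530585-167530834 on the plus strand, the Plin1 window at chr7:79382719-79382968 on the minus strand and the Adipoq window at chr16:22965036-22965285 on the plus strand, and none of the 3 overlaps an annotated exon.
Cebpb: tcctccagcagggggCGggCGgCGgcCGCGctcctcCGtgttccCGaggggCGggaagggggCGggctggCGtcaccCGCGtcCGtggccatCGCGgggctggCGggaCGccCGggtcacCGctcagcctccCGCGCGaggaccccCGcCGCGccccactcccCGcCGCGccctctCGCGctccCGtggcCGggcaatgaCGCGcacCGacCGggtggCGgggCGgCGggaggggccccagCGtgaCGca
Plin1: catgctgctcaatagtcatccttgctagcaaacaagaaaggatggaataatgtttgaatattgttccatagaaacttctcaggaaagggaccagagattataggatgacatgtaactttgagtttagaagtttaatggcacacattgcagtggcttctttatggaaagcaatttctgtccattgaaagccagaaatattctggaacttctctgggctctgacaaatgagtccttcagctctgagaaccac
Adipoq: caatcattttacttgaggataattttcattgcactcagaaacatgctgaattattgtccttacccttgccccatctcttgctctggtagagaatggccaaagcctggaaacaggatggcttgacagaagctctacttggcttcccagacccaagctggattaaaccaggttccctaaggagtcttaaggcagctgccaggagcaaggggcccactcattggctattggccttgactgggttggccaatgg
The Cebpb window held 41 CG dinucleotides, against 0 in the Plin1 and Adipoq windows. Cebpd held 23, Cebpa 21, Pparg 16 and Lpl 7, whereas Cfd held 2, Cd36 1 and Fabp4 0. The median over 21770 such windows was 8, 7.39% of them held 0 and 15.9% held 20 or more. The 4 transcription factors were therefore all above the median, and the 6 genes of lipid handling and secretion all below it, Lpl only just. This holds for the 1 start per gene that the annotation marks as canonical, and other starts were not examined. The Pparg, Adipoq, Lpl and Cd36 windows lie inside the annotated gene. Unlike the windows printed above, those of Cebpd, Cebpa, Pparg, Lpl and Cd36 overlap annotated exons. The CG count did not follow the order of appearance described further down, in which Fabp4 came before Pparg. The letters TATAAA, searched on both strands, were found in the Cebpa and Lpl windows and in 11.9% of all windows. The letters TTNNGNAA, an imperfect form of a C/EBP site, were found in 5 of the 10 windows (Fabp4, Adipoq, Plin1, Lpl and Cd36) and in 36.9% of all. The PPAR/RXR direct repeat without a mismatch was in 0 of the 10 and in 0.0367% of all.

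The cell filter of the published methods kept 29744 of 29962 barcodes in iWAT and 28215 of 28636 in iBAT, with medians of 16204 and 27235 UMIs per kept cell. Of these, 17460 iWAT cells (58.7%) and 25927 iBAT cells (91.9%) had a Pdgfra UMI. After thinning to 10000 UMIs, which left out 5588 shallower kept cells in iWAT and 0 in iBAT, the shares were 49.6% and 79.6%. The 10 mesenchymal markers summed to 29432 CPM in the Pdgfra-positive cells of iWAT and to 20815 in its other kept cells. In iBAT the sums were 14374 and 14073, so the gate set its cells apart from the rest by little there. Cell indices shared by both libraries numbered 8. Xist, the RNA of the silenced X chromosome of female cells, stood at 345 CPM in iWAT and 0.0505 in iBAT. Depot and whatever else differed between the 2 cultures cannot be told apart.

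Which depot's stromal cells carried more of the adipogenic programme was asked first. In Pdgfra-positive cells 8 of the 10 members were at least 2-fold higher in iBAT and 0 were at least 2-fold higher in iWAT. Over all 13747 genes with 1 CPM or more in at least 1 library, 6.29% were that much higher in iBAT and 6.67% in iWAT. Adipoq, Plin1 and Cfd passed this minimum only through iBAT and had to differ, so the count over the other 7 members, 5 of them higher in iBAT and 0 in iWAT, is the one to set beside a background. Of the 12655 genes that passed in both libraries 4.02% were higher in iBAT and 4.47% in iWAT. The median of the log2 ratios (iBAT over iWAT) was 1.45 for these 7 members and 0.05 for all genes that passed in both. Cd36 passed in iWAT at 1.00 CPM, a level that was 0.298 without cells that met the gate of another cell class. Without those cells 6 members passed in both libraries, and 4 of them were higher in iBAT. The share over all genes without those cells is not given here, so this count has no background of its own.

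The early factors differed unevenly. Cebpb stood at 236 CPM in iWAT (95% interval 234 to 237) and 276 in iBAT (275 to 277), a ratio of 1.17 (1.16 to 1.18). Cebpd stood at 69.5 in iWAT (68.6 to 70.4) and 190 in iBAT (189 to 191), which is 2.73 times as much (2.70 to 2.77). Intervals here and below are exact and cover counting error only, not the spread between cultures. Those of levels, means and ratios also leave out the spread between cells of 1 culture. Cebpb was thus nearly level between the libraries while its partner Cebpd was not.

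Both late factors were higher in iBAT. Cebpa was at 10.5 CPM in iWAT (10.2 to 10.9) and 70.2 in iBAT (69.6 to 70.8), a 6.67-fold difference (6.44 to 6.91). Pparg was at 10.8 (10.4 to 11.1) and 30.9 (30.5 to 31.3), a 2.88-fold difference (2.77 to 2.98). In thinned cells a Cebpa UMI was found in 9.89% of the iWAT and 36.3% of the iBAT stromal cells, and in 16.3% and 59.3% without thinning. The Pparg shares were 8.97% and 20.6% thinned, and 14.8% and 39.6% unthinned. The differences therefore extended over many cells.

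Among the lipid genes, Lpl was abundant in both depots and differed by less than 2-fold, with 237 CPM in iWAT (236 to 239) and 346 in iBAT (345 to 347). Fabp4 stood at 43.4 (42.6 to 44.1) and 111 (110 to 111), a ratio of 2.55 (2.51 to 2.60). Cd36 stood at 1.00 in iWAT (0.896 to 1.12) and 11.0 in iBAT (10.7 to 11.2), a ratio of 10.9 (9.79 to 12.2). The ratio of Cd36 moved with the cells counted, to 16.8 without cells that met the gate of another cell class and to 5.34 over all kept cells. Plin1, the marker of the lipid droplet, had 31 UMIs in all iWAT stromal cells, or 0.0950 CPM (0.0645 to 0.135). The iBAT cells held 1342 of them, at 1.80 CPM (1.71 to 1.90), which is 19.0 times the iWAT level (13.3 to 28.1).

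Adipoq and Cfd were furthest apart. Adipoq had 26 UMIs in iWAT, or 0.0797 CPM (0.0520 to 0.117), and 2756 in iBAT, or 3.71 CPM (3.57 to 3.85), a ratio of 46.5 (31.7 to 71.3). Cfd had 0 UMIs in the iWAT stromal cells and 1481 in iBAT, or 1.99 CPM (1.89 to 2.10). Against the limit of 3 UMIs over the iWAT group, Cfd was at least 217-fold higher in iBAT, and the exact interval of the ratio, which also takes in the counting error of iBAT, began at 176. The Adipoq log2 ratio of 5.54 fell to 4.42 where at least 2 Pdgfra UMIs were required and to 4.80 with a filter of 500 genes and 15% mitochondrial UMIs, and was 6.48 over all kept cells. Over all kept cells the Cfd ratio, against 1 UMI in iWAT, was 1858 (333 to 73424).

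**Figure D1:**
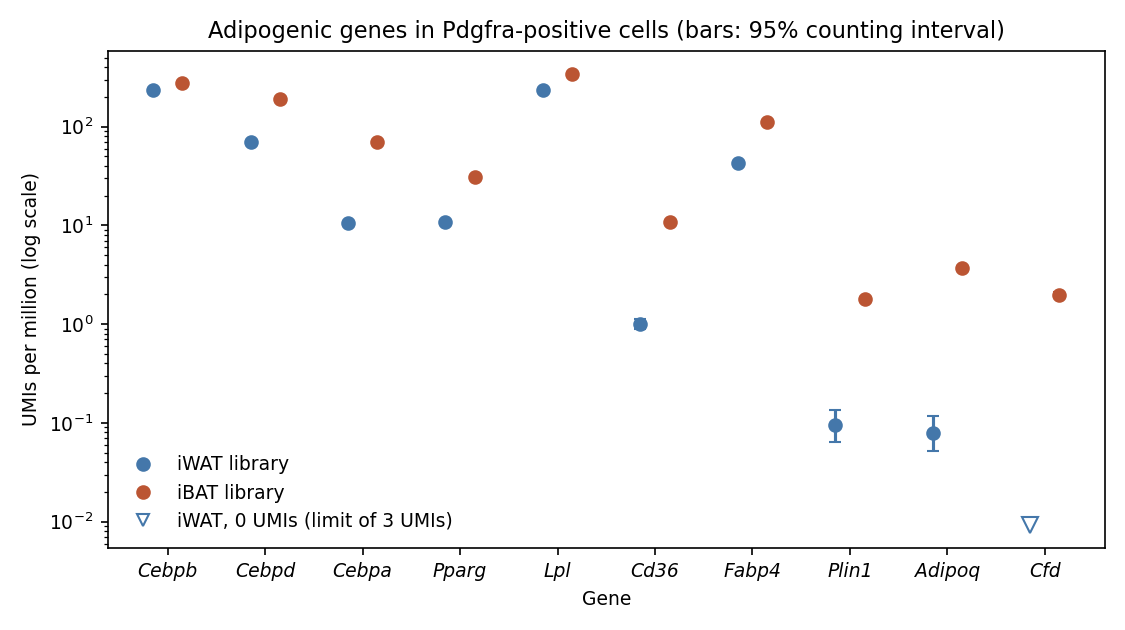
Level of each member in Pdgfra-positive cells, in CPM on a log axis, for the iWAT library (blue) and the iBAT library (red), with 95% counting intervals that are mostly smaller than the points. The iBAT point is above the iWAT point for all 10 genes, by little for Cebpb and Lpl, and the open triangle puts Cfd in iWAT at its limit of 3 UMIs.

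Shares of cells with a UMI were read against classes that should lack fat cell genes. In iWAT, 0.102% of the thinned stromal cells had an Adipoq UMI (0.137% unthinned) and 0.0702% a Plin1 UMI (0.178% unthinned), at a median raw depth of 18119 UMIs. In its epithelial-like cells, with a median of 11541 UMIs, the thinned shares were 0.0374% and 0.112%. The Plin1 share of the iWAT stroma is at background, and the Adipoq share rests on 16 cells, against 1 epithelial-like cell. In iBAT, 0.532% of the thinned stromal cells had an Adipoq UMI, 0.602% a Plin1 UMI and 0.239% a Cfd UMI (1.12%, 1.25% and 0.436% unthinned), at a median depth of 27838 UMIs. The Schwann-like cells of iBAT, with a median of 15872 UMIs, had thinned shares of 0.161%, 0.483% and 0.161%. These rest on 1, 3 and 1 of 621 cells, and their intervals, which reach 0.894%, 1.41% and 0.894%, cover the stromal shares. The stromal shares of the 3 genes were thus not distinguishable from this class at this depth. It is no clean background, as 33.3% of its cells had a Pdgfra UMI and 9.18% were called doublets. By summed level it was lower, at 0.619 CPM for Adipoq (0.249 to 1.28), 0.619 for Plin1 (0.249 to 1.28) and 0.177 for Cfd (0.0214 to 0.639). The stromal levels of 3.71, 1.80 and 1.99 rest on few cells.

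The few UMIs of the late genes were concentrated in few cells. In iBAT 50% of the Adipoq UMIs of all kept cells lay in 8 cells, 50% of the Cfd UMIs in 6 and 50% of the Plin1 UMIs in 28. For Cd36 it took 69 cells, but 10953 of its 17500 UMIs lay in the 241 immune-like cells described below. Within the Pdgfra-positive cells, on which the depot ratios rest, 50% of the Adipoq UMIs lay in 6 cells, 50% of the Cfd UMIs in 3 and 50% of the Plin1 UMIs in 26. By contrast it took 6628 of all kept cells to reach 50% for Cebpb, 4691 for Cebpd, 2625 for Cebpa and 2144 for Pparg. A single cell held up to 536 Adipoq UMIs, 411 of Cfd, 1304 of Fabp4 and 1270 of Lpl. In iWAT the highest count in a cell was 4 for Adipoq, 1 for Plin1, 47 for Fabp4 and 129 for Lpl. The variance of the thinned counts over cells divided by their mean was 1.98 for Cebpb and 1.92 for Pparg in iBAT, against 55.0 for Adipoq, 57.5 for Cfd and 33.5 for Fabp4.

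These cells were partly outside the Pdgfra gate. The Pdgfra-positive cells held 94.0% of all UMIs of the kept iBAT cells, and close to that share of the UMIs of Pparg (94.0%), Cebpa (96.6%), Cebpb (96.8%) and Cebpd (96.7%). They held 50.2% of the Adipoq UMIs, 50.5% of the Cfd UMIs, 70.9% of the Plin1 UMIs and 82.1% of the Fabp4 UMIs. The 1371 iBAT cells with no Pdgfra UMI and no other class stood at 88.8 CPM for Adipoq (85.5 to 92.2), 47.6 for Cfd (45.1 to 50.1) and 17.8 for Plin1 (16.4 to 19.4). These levels rest on few cells, as 1.97%, 1.68% and 2.04% of the 1371 had a UMI of the gene without thinning. Over all 1371 cells the Cebpb level was 175 and the Cebpd level 103, below the 276 and 190 of the Pdgfra-positive cells. These are not the levels of the few cells that held the late genes. The 8391 iWAT cells of the same kind had 0.0938 Adipoq CPM and 1 Cfd UMI, so no such difference was seen there for these late genes. Their Cebpb level of 173 and Cebpd level of 56.6 were below the 236 and 69.5 of the Pdgfra-positive iWAT cells.

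The order in which the genes appeared was read along the summed UMIs of the list. Each cell was thinned to 10000 UMIs, which left out 1789 shallower stromal cells in iWAT and 0 in iBAT, and cells were put in bins of summed UMIs that double in width. A gene was said to appear at the lowest bin from which at least 50% of the cells had a UMI of it in every higher bin of at least 20 cells. In iBAT the order was Cebpb from a sum of 2, Lpl from 4, Fabp4 and Cebpa from 16, Pparg from 32, Cd36, Plin1 and Adipoq from 128, and Cfd from 256. In iWAT Cebpb and Lpl appeared from 2, Cebpd from 8 and Fabp4 from 16, and the other 6 members in no bin. Each gene is part of its own sum, which raises its share from bin to bin. With the gene left out of the sum, Cebpb and Lpl in iWAT appeared from 0, Fabp4 from 32 and Cebpd in no bin, where its highest share was 48.1%. In iBAT Cebpb and Lpl then appeared from 0 and Pparg from 64, and the 9 members kept their places. The place among the genes that appeared was within 1 between the libraries for all 3 members placed in both, Cebpb, Lpl and Fabp4. The order follows abundance in part, because a gene with more UMIs is found at a lower sum.

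Cebpd took no place in iBAT because its share was below 50% at the highest sums. With 25% of the cells as the requirement it appeared from 2, in place 2, and each later gene moved down by 1 place. Along the sum of the other 9 members it was found in 62.7% of the cells at 0, in 68.1% at 4 to 7 and in 67.8% at 8 to 15. It was found in 49.0% at 64 to 127, in 42.9% of the 42 cells at 128 to 255 and in 22.7% of the 22 cells from 256 on. Its mean was level at 2.00 UMIs per cell at 4 to 7 and 8 to 15, then 1.47 at 32 to 63 (1.38 to 1.57), 1.05 at 128 to 255 (0.761 to 1.41) and 0.273 from 256 on, where the interval reached 0.594. Cebpb had another shape. Along the sum of the other 9 its mean was 2.43 UMIs per cell at 0 (2.35 to 2.51), 3.40 at 32 to 63 (3.24 to 3.55) and 2.92 at 128 to 255 (2.41 to 3.51). In the 22 cells from 256 on it was 1.45 (0.995 to 2.05), below the level at 0. In the 57 cells with at least 8 members detected, Cebpb stood at 258 CPM against 275 in the cells with 5 or fewer, a ratio of 0.937 (0.792 to 1.10), and Cebpd at 118 against 191, a ratio of 0.616 (0.477 to 0.782). Both genes are members whose detection set these groups, so these ratios are a description only.

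Cebpa and Pparg were highest at the top. Along the sum of all 10, Cebpa had a mean of 1.73 UMIs per cell at 16 to 31 (1.68 to 1.78) and 11.1 from 256 on (9.77 to 12.5). Pparg had 0.582 (0.555 to 0.611) and 7.52 (6.44 to 8.73). With the gene left out of the sum, Cebpa had 1.49 at 16 to 31 and 7.85 at 128 to 255, its top bin. Pparg then had 0.517 at 16 to 31 and 7.75 from 256 on. From a sum of 128 on all cells had Cebpa and Fabp4 UMIs, and 95.1% to 95.7% had Pparg. The sum of 256 at which Cfd appeared was also the bin in which Adipoq reached 24.6 UMIs per cell, Plin1 9.57 and Fabp4 162.

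**Figure D2:**
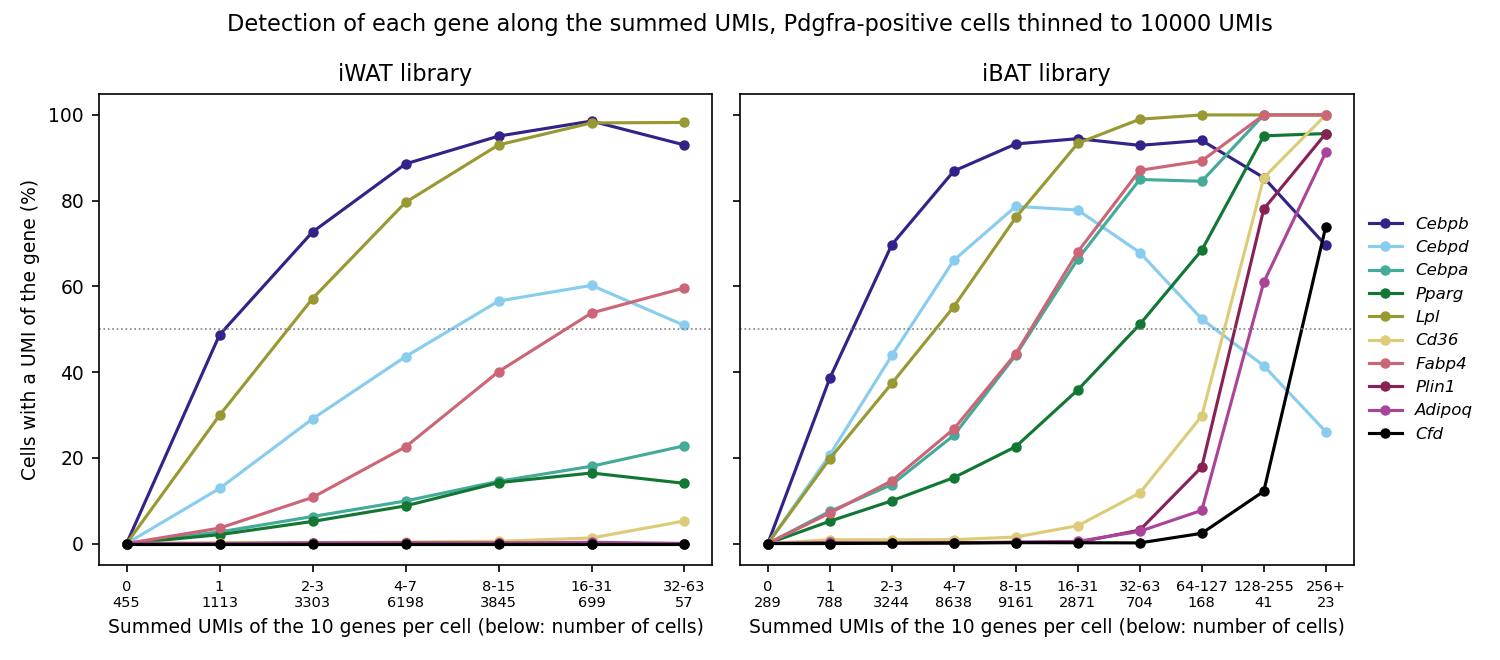
Percentage of Pdgfra-positive cells with a UMI of each member (vertical axis) by bin of the summed UMIs of the 10 genes (horizontal axis, with the number of cells below each bin), after thinning to 10000 UMIs per cell, with iWAT on the left, iBAT on the right, bins under 20 cells left out, and the dotted line at 50%. In iBAT Cd36, Plin1, Adipoq and Cfd climb only in the last bins, and Cebpd is lower in the last bins than in the middle ones, each gene being part of its own sum. In iWAT the sums end at 32 to 63 and Plin1, Adipoq and Cfd stay at or near 0.

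A second place was taken from each gene's own top bin, as the lowest bin at which its mean reached 50% of its mean there. In iBAT it was 1 for Cebpd and 2 for Cebpb, whose means in the top bin were low. It was 128 for Cebpa, Pparg, Lpl and Cd36, and 256 for Fabp4, Plin1, Adipoq and Cfd. Lpl and Fabp4 supplied many of the summed UMIs, so their own places are tied to the sum. With the gene left out of the sum the place was 0 for Cebpb and Cebpd, 32 for Lpl, 128 for Cebpa, Pparg and Fabp4 (the top bin being 128 for Cebpa, Fabp4 and Lpl), and 256 for Cd36, Plin1, Adipoq and Cfd. In iWAT the 57 cells at 32 to 63, the highest bin with at least 20 cells, had 28.5 Lpl UMIs per cell, 5.81 of Cebpb and 2.91 of Fabp4. Cebpa was found in 22.8% and Pparg in 14.0% of these 57 cells. In the 704 iBAT cells at the same sum the shares were 84.9% and 51.1%, and Lpl had 27.1 UMIs per cell.

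Genes outside the list were followed along the same sum in iBAT. Pdgfra went from 1.67 UMIs per cell at a sum of 0 to 3.92 at 64 to 127 and stood at 1.26 (0.844 to 1.81) from 256 on. Dlk1, a secreted inhibitor of adipogenesis, went from 1.04 UMIs per cell at a sum of 0 to 0.424 at 16 to 31 and 0.130 from 256 on. The 6 cycling genes Mki67, Top2a, Cdk1, Ccnb1, Birc5 and Ube2c summed to 12.4 UMIs per cell at 2 to 3, 9.48 at 16 to 31 and 0.652 (0.365 to 1.08) from 256 on. Fgf2 was highest, at 2.65 UMIs per cell, at 32 to 63, and its receptor gene Fgfr1 stayed between 1.83 and 2.91. Ucp1, the uncoupling protein gene, had a UMI in 0% to 2.44% of the cells of any bin. In iWAT Pdgfra went from 1.00 to 2.24 UMIs per cell between a sum of 0 and 16 to 31, and Dlk1 was at 0.0215 or less in all bins of at least 20 cells.

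**Figure D3:**
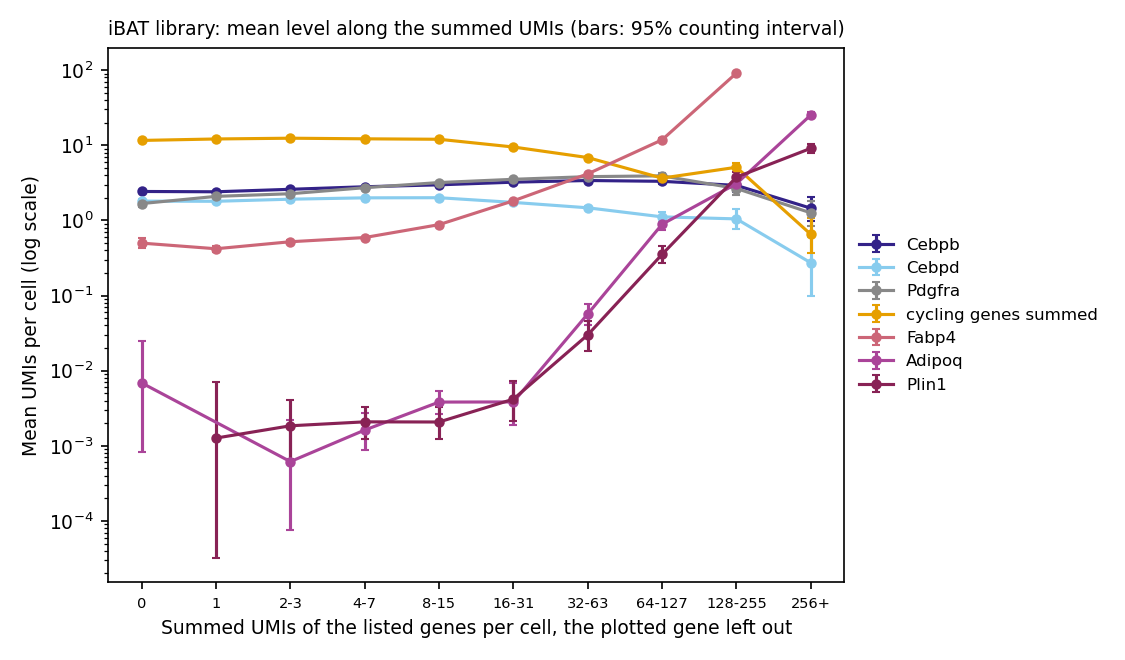
Mean UMIs per thinned cell (log axis) of Cebpb, Cebpd, Pdgfra, the summed cycling genes, Fabp4, Adipoq and Plin1 by bin of summed UMIs in iBAT, where members are binned by the sum of the other 9 and the remaining genes by the sum of all 10, with 95% counting intervals and bins without a UMI of the gene, and for members bins under 20 cells, left out. Cebpd is highest at 4 to 7 and 8 to 15 and lower in each later bin, Cebpb is lowest in the last bin, Pdgfra and the cycling genes are lowest in the last bin, and Fabp4, Adipoq and Plin1 are each highest in their last bin.

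Cells that held most of the list at once were found in iBAT. At least 8 of the 10 members were detected in 57 of 25927 thinned stromal cells of iBAT, or 0.220% (0.167 to 0.285), and 5 of these cells held all 10. In iWAT 0 of 15671 cells did so, which allows a share of up to 0.0191% by the limit of 3 cells, and the largest number of members in an iWAT cell was 6, in 29 cells. Adipoq, Plin1, Cfd and Cd36 were found in only 16, 11, 0 and 62 of the 15671 cells, and 8 members cannot be reached without some of them. The count of 0 therefore adds little to the levels of these genes. The median was 2 members per cell in iWAT and 3 in iBAT. The iBAT share depended on the depth, at 0.104% with thinning to 5000 UMIs and 0.478% unthinned. With cells lacking Pdgfra UMIs but outside the other classes included it was 0.286%, from 76 cells. Of those 76 cells 19 had no Pdgfra UMI, against 5.23% of the cells with 0 to 5 members. Scrublet called 0 of the 57 cells a doublet, against 2.67% of the stromal cells with 5 or fewer members, and 0 of them met the gate of another class.

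Detection of the late genes overlapped among the iBAT stromal cells. Of the 138 thinned iBAT stromal cells with an Adipoq UMI, 58.7% had Pparg, against 20.3% of the cells without Adipoq. Cebpa was found in 71.7% (63.5 to 79.1) against 36.2%, Fabp4 in 75.4% (67.3 to 82.3) against 37.1% and Cd36 in 48.6% against 1.92%. Plin1 was found in 35.5% (27.6 to 44.1) against 0.415%. Cebpb did not follow, with 84.1% (76.9 to 89.7) against 85.6%, and Cebpd was found in 54.3% (45.7 to 62.8) against 66.9%. Across the 25927 cells, which share 1 library, Pearson's r of log2 thinned UMIs plus 1 was 0.693 for Adipoq and Cfd, 0.567 for Adipoq and Plin1, and 0.419 for Fabp4 and Lpl. Adipoq was found together with Cfd in 23 cells and with Plin1 in 49, so their r values rest on few cells. The r values of Pparg with Cebpb and Cebpd were -0.00401 and -0.0553, too weak in such sparse counts to be read as a relation.

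Other genes of the fat cell were set against the same cells, as a description, since the cells were chosen by the members. Compared were genes with 10 CPM or more in the 57 cells with at least 8 members or in the 24929 with 5 or fewer. Of 25 terminal adipocyte genes compared, 24 were at least 2-fold higher in the 57 cells and 0 lower, where 10.5% of all 9430 genes compared were higher and 11.5% lower. Most of the 25 entered only through the 57 cells and had to differ. Of the 10 at 10 CPM or more in both groups 9 were higher and 0 lower, beside 6.53% higher and 7.39% lower of the 7835 genes that passed in both. Scd1, the stearoyl-CoA desaturase, was at 11891 CPM against 149, Acsl1, an acyl-CoA synthetase, at 293 against 13.0, Plin2 at 249 against 47.3 and Acaca, the acetyl-CoA carboxylase, at 64.9 against 19.6. Named after their values were seen, Adrb3, the beta-3 adrenergic receptor, was at 233 against 1.12 and Car3, a carbonic anhydrase, at 460 against 0.325. Of 7 complement genes compared 6 were higher and 0 lower, or 4 and 0 of the 5 that passed in both groups, among them Serping1, the C1 inhibitor, at 651 against 157. The terminal gene that did not differ by 2-fold was Acly, the ATP citrate lyase, at 133 against 94.6. Of 9 partners of lipoprotein lipase and fatty acid uptake 4 were higher and 1 lower, or 4 and 0 of the 8 that passed in both, with Scarb1, a lipoprotein receptor named after its value was seen, at 265 against 36.1. The lower one, Vldlr, had 3 UMIs in the 57 cells, and the interval of its ratio, 0.0775 to 1.10, included no difference.

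Regulators differed in both directions. Of 18 activators of adipogenesis compared, 10 were higher in the 57 cells and 2 lower, or 6 and 1 of the 12 that passed in both groups. Lpin1, a phosphatidate phosphatase, was at 91.2 against 12.2, and the lower ones, chosen after their values were seen, were Klf4 at 31.6 against 125 and Egr2 at 8.77 against 50.1. Of 16 inhibitors 1 was higher and 4 lower, or 1 and 3 of the 15 that passed in both. Dlk1 was at 10.5 (3.86 to 22.9) against 69.1, Sox9 at 35.1 (21.4 to 54.2) against 161 and Gata2 at 3.51 against 22.0. The other lower one was Twist1, at 33.3 against 96.0, and the higher one was Foxo1, at 33.3 against 13.1. Among stromal markers, Col1a1 was at 2830 against 6747 and Thy1 at 130 against 927, whereas Dcn was at 325 against 111. Pdgfra, Pdgfrb, Col1a2, Ly6a and Fbn1 were also lower in the 57 cells. Col3a1 and Lum, the latter with 4 UMIs there, were higher by less than 2-fold. A UMI of a cycling gene was found in 59.6% of the 57 cells and 83.5% of the others. Ucp1 had 0 UMIs in the 57 cells, whose interval reaches 6.47 CPM, against 0.321 CPM in the others, so a difference was not detectable at this depth.

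The same lists were then compared between the depots. Of their 88 genes 71 passed the level minimum, and 15 of these were at least 2-fold higher in iBAT and 4 in iWAT. Of the 64 that passed in both libraries 10 were higher in iBAT and 3 in iWAT, beside the 4.02% and 4.47% of all such genes. Of 17 terminal adipocyte genes tested 4 were higher in iBAT and 1 in iWAT, but of the 13 that passed in both it was 1 and 1. The one higher in iWAT was Scd1, at 451 CPM against 174 in iBAT, and Plin2 was at 94.4 against 50.3. Acsl1 was at 6.79 in iWAT and 13.8 in iBAT, and Acaca at 27.5 and 19.2. Besides Acsl1, the ones higher in iBAT, named after their values were seen, were all scarce and passed only through iBAT. Plin4, a perilipin, was at 0.0368 in iWAT and 1.72 in iBAT, Car3 at 0.0766 and 1.38, and Trarg1 at 0.334 and 1.06. Also named after their values were seen, Fasn, the fatty acid synthase, was at 32.2 in iWAT and 30.5 in iBAT, Acly at 73.6 and 93.2, and Dgat2 at 3.00 and 5.84.

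Of 20 activators 3 were higher in iBAT and 0 in iWAT. These 3 were Klf15 at 0.555 and 1.43, Nr1h3, a liver X receptor, at 0.983 and 2.43, and Prdm16, a regulator of brown fat identity, at 2.13 and 5.32. Klf15 and Nr1h3 passed the minimum only through iBAT, so of the 18 activators that passed in both libraries 1 was higher in iBAT. Of those at 10 CPM or more, the 4 furthest apart differed by less than 2-fold, among them Nr3c1, the glucocorticoid receptor, at 45.7 in iWAT and 73.6 in iBAT, and Rxra, the partner of PPARgamma, at 9.12 and 14.2. Klf5 was at 8.68 and 13.8, and Lpin1 at 7.81 and 12.0. Of 18 inhibitors 4 were higher in iBAT and 2 in iWAT. Dlk1 stood at 1.40 in iWAT and 63.7 in iBAT, a ratio of 45.4 (41.4 to 49.9), close in size to that of Adipoq. Sox9 was at 31.9 and 157, Gata2 at 8.38 and 22.1, and Nr2f2 at 98.1 and 214. The 2 higher in iWAT were Gata3, at 2.92 in iBAT and 3.42 times that in iWAT, and Wnt10b, at 1.02 and 0.450, which passed only through iWAT. Inhibitors and late members were therefore both among the genes higher in iBAT, although within iBAT Dlk1 was lower at high sums.

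Of 9 partners of lipoprotein lipase and fatty acid uptake tested 2 were higher in iBAT and 1 in iWAT. Cav1, the caveolar coat protein, was at 97.4 in iWAT and 315 in iBAT, Pcsk6, a proprotein convertase, at 4.27 and 10.8, and Angptl2 at 117 and 200. Vldlr, the very low density lipoprotein receptor, was at 34.6 in iWAT and 13.0 in iBAT. Of 7 complement partners of Cfd 2 were higher in iBAT, C1ra and C4b, the latter at 3.64 and 7.42. C1ra, a protease of the classical pathway, was at 10.5 and 22.4, its partner C1s1 at 41.8 and 58.5, Serping1 at 117 and 153, and Cd59a, an inhibitor of the terminal complex, at 42.0 and 39.2.

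Whether the list marks stromal cells was examined with classes gated by at least 4 of 10 markers at 2 or more UMIs. For each ranked class but the stromal cells, all 10 markers were higher in it than in the other kept cells, and of the mesenchymal markers 9 were in iWAT and 8 in iBAT. The gates used these markers, and Pdgfra is among the mesenchymal ones, so this is no independent check of the classes. The highest level among the classes was in the Pdgfra-positive cells for 2 of the 10 members in iWAT, where this held for 19.6% of all genes. It was so for 5 members in iBAT, where 12.5% of all genes had their highest level there. The iWAT count was 4 where 1 more marker was required per class, for which the share over all genes is not given here. The cells with no Pdgfra UMI and no class were not ranked in these counts. With them ranked too, an alternative added after seeing the data, the counts were 1 in iWAT, Plin1, and 2 in iBAT, Cebpb and Cebpd, where 14.6% and 9.88% of all genes were highest in the Pdgfra-positive cells. Those iBAT cells without Pdgfra stood at 88.8 CPM for Adipoq, 47.6 for Cfd and 17.8 for Plin1, as given above. Few of them had a UMI of these genes. In the ranking without them, the 2 in iWAT were Adipoq and Plin1, whose intervals overlapped those of the epithelial-like cells, and Cfd was at 0 in all ranked classes. The 5 in iBAT were Cebpb, Cebpd, Adipoq, Plin1 and Cfd. Of these Cebpb overlapped the immune-like class, Adipoq the mural-like class and Plin1 the skeletal muscle-like class. The Adipoq level of the 277 mural-like cells of iBAT rested on 25 UMIs, found in 1.44% of them, and 23 of these UMIs lay in the 80 cells without a Pdgfra UMI. Of the 277 cells 71.1% held a Pdgfra UMI and so also counted as stromal. The 80 without one stood at 13.1 CPM for Adipoq (8.30 to 19.6), above the 3.71 of the Pdgfra-positive cells.

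Immune-like cells, 153 in iWAT and 241 in iBAT, led in lipid uptake genes. Cd36 stood there at 950 CPM in iWAT (907 to 995) and 1811 in iBAT (1778 to 1846). The stromal levels were 1.00 and 11.0, or 0.298 and 4.99 without cells that met the gate of another class. Lpl stood at 596 in iWAT (562 to 632) and 1599 in iBAT (1567 to 1631). Cebpa was at 137 and 120, and Cebpb at 524 in iWAT and 266 in iBAT. Adipoq had 0 and 1 UMIs in these cells and Cfd 0 in both. Without the immune-like cells that held a Pdgfra UMI, Cd36 was at 1081 and 2341. Scrublet called 10.5% and 10.4% of the immune-like cells doublets.

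Vascular cells led for Fabp4 and Pparg. The 86 mural-like cells of iWAT had Fabp4 at 470 (436 to 505) and Pparg at 28.1, against 43.4 and 10.8 in the stroma. The 203 endothelial-like cells of iBAT had Fabp4 at 837 (811 to 863), Pparg at 67.9 and Cd36 at 147. Scrublet called 15.3% of these 203 cells doublets, and 41.9% held a Pdgfra UMI and so also counted as stromal. In the 118 without a Pdgfra UMI, Fabp4 was at 985, Pparg at 77.5 and Cd36 at 174. A Fabp4 UMI was found in 89.2% of these endothelial-like cells after thinning, in 37.3% of the stromal cells and in 10.8% of the Schwann-like cells (56.5% of the stromal cells unthinned). The iWAT library had 12 endothelial-like, 42 Schwann-like and 5 skeletal muscle-like cells, too few to be ranked, and iBAT had 0 epithelial-like cells. Among the ranked classes of iWAT, the 4213 epithelial-like cells had the highest Cebpd level, 92.8 against 69.5 in the stroma. These cells were the lowest of the ranked classes for Pparg, Cebpa, Cebpb, Fabp4, Lpl and Cd36. The 42 unranked Schwann-like cells of iWAT stood at 150 for Cebpd. In iBAT the Schwann-like cells were lowest for Pparg, Cebpb, Fabp4, Lpl and Cd36.

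**Figure D4:**
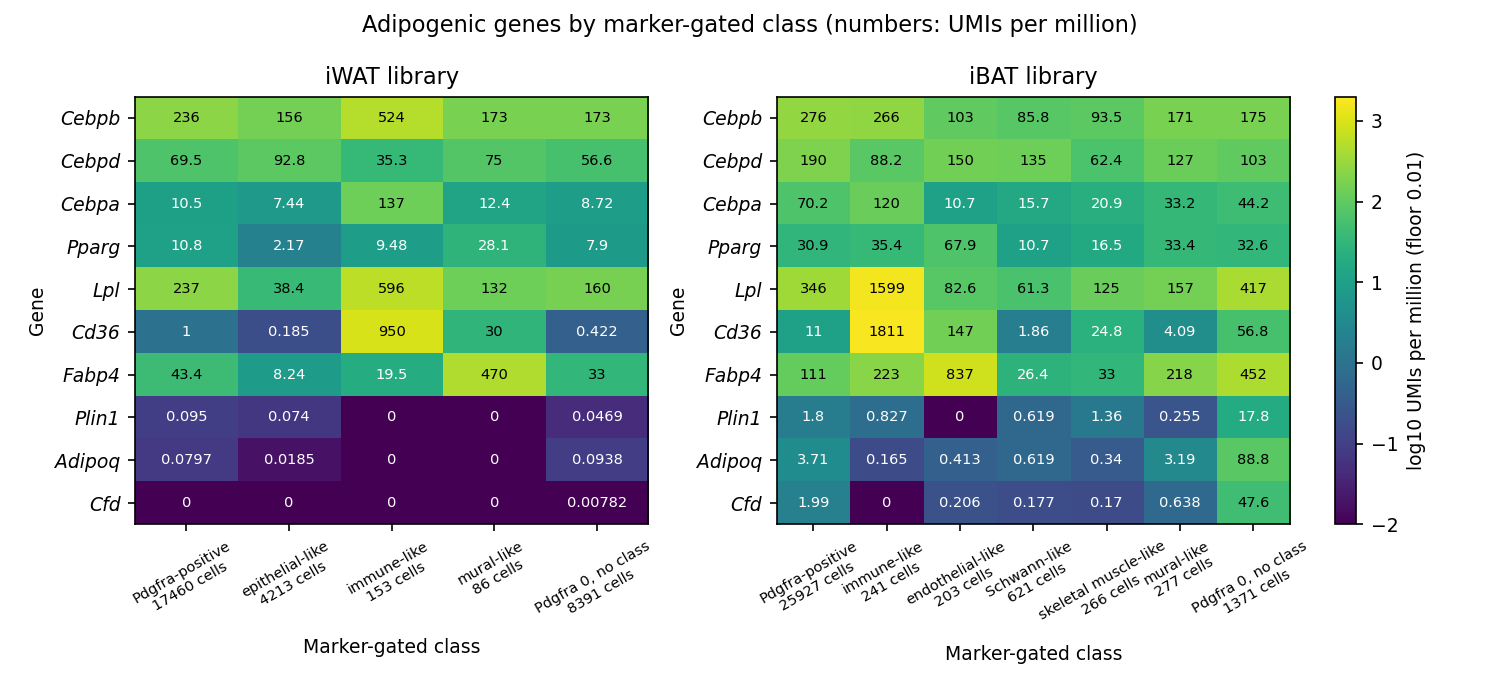
CPM of each member (rows) in the ranked classes and in cells with no Pdgfra UMI and no class (columns, with the number of cells), for iWAT (left) and iBAT (right), with colour on a log10 scale. Cd36 and Lpl are brightest in immune-like cells, Fabp4 in mural-like and endothelial-like cells, and Adipoq, Cfd and Plin1 in the iBAT cells with no Pdgfra UMI. Few of those iBAT cells had a UMI of Adipoq, Cfd or Plin1.

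The genes most like the list were sought in the top 5% of stromal cells by summed UMIs, against cells at or below the median sum. The measure of likeness was the smaller of the log2 ratios of the 2 libraries, over 921 and 8439 cells in iWAT and 1376 and 14758 in iBAT. The 921 top cells of iWAT held 10066 thinned UMIs of Lpl and 5225 of Cebpb, but 2 of Adipoq and 0 of Plin1 and Cfd. Likeness in iWAT was therefore mostly to the abundant members, not to the late ones. The 10 highest were Rac2, Saa3, Adgre1, Fcgr2b, Wfdc17, Cd84, Ccl6, Clec5a, Clec4n and Mmp12, with values from 6.15 for Rac2 to 5.02 for Mmp12. Adgre1 is an immune marker of the gate, and immune-like cells made up 9 of the 921 top cells in iWAT and 44 of the 1376 in iBAT. Without cells gated to another class, a change made after these names were seen, the 10 were Saa3, Hp, C4b, Slc10a6, Xpnpep2, Fxyd1, Serpina3g, Il13ra2, Smim41 and Prtn3, and 1 gene was shared with the first ranking. Saa3, a serum amyloid gene, led with a smaller log2 ratio of 6.15, followed by Hp (haptoglobin) at 5.45 and the complement gene C4b at 2.68. Hp stood at 257 CPM in the top cells of iBAT and 2.94 in the low ones, and at 5.42 and 0.124 in iWAT.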

How the data were processed

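Single-cell RNA was measured in 1 iWAT and 1 iBAT library. The deposited values are raw UMI counts, made by the authors on a commercial cloud pipeline whose version is not given in the sources used here. The submitters' processing notes name mm39 and Seurat 5.0.0. The published methods name vehicle, FGF1 and FGF2 only and another age range than the labels. Cells with more than 200 and fewer than 7500 genes and under 30% mitochondrial UMIs were kept. Counts were summed over gated cells and scaled to 1000000 UMIs in Python 3.11.15 with numpy 2.4.6 and scipy 1.17.1. Cells were thinned to 10000 UMIs without replacement. Doublets were called with Scrublet (scanpy 1.11.5) and kept. Intervals are exact, at 95%. Scripts were tested on simulated data. Members and lists were chosen with earlier results of these data known. Named were all 10 members, the 4 genes of each pathway list with the largest absolute log2 ratio at 10 CPM or more, the 10 genes most like the list, and Ucp1, Fgf2, Fgfr1, Pdgfra, Dlk1 and 6 cycling genes. Other genes were named after their values were seen. Alternatives changed the Pdgfra gate, class gates, cell filter, doublets, scaling, level filter, thinning and summed genes. Without a tag per cell, treatments were not compared. Sequences came from GRCm39 and GENCODE M39.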

Additional observations from a re-analysis of the deposited data

How the results depend on the processing

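No paired analysis was possible because there was 1 library per depot. Of 80 recomputed log2 ratios of single members 40 stayed within the counting interval and 40 moved, and 0 changed sign. Between 8 alternatives the Adipoq log2 ratio ranged from 4.42 to 6.48, that of Cd36 from 2.42 to 4.41 and that of Cfd, against its limit or, over wider sets of cells, 1 UMI in iWAT, from 6.25 to 10.9. The count of members at least 2-fold higher in iBAT was 5 with the level minimum required in both libraries, an alternative added after seeing the data, and 4 where cells gated to another class were left out as well, also added, against 8, and within 1.5 times that under the others run. For the count of 4 the share over all genes is not given here. Of all genes, 732 were at least 2-fold apart at a minimum of 10 CPM, 1075 with the minimum in both libraries and 5759 with no filter, against 1782. Of the pathway lists 10 were, at the minimum of 10, against 19. The iBAT share of cells with at least 8 members was 0.104% at 5000 UMIs per cell, 0.478% unthinned and 0.286% over all cells outside the other classes, the last added after seeing the data, against 0.220%. Members highest in the Pdgfra-positive cells of iWAT were 4 where 1 more marker was required per class, against 2. With cells of no Pdgfra UMI and no class ranked too they were 1 in iWAT and 2 in iBAT, against 2 and 5. Median-of-ratios and TMM scaling shifted all log2 ratios by -0.03. The cause of these differences was not tested beyond what each alternative changed. The remaining 61 recomputed counts and shares stayed within 1.5 times or their interval. Genes with 0 to 3 UMIs in a library, such as Cfd in iWAT, are limited by depth.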
